A study of Mus musculus with 36 samples.

Results

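Insr, Irs1 and Grb10 encode the insulin receptor, insulin receptor substrate 1 and the adaptor growth factor receptor-bound protein 10. They were read on every probe set whose platform annotation gives one of these symbols and no other gene, which came to 6 of the 22690 probe sets on the array and to 3 of the 12393 genes with such a probe set. Irs1 had 1 probe set, Insr had 2 and Grb10 had 3. Irs1 and Grb10 lay above the limit on low values used for the tests, a mean signal of about 123, and Insr, with a mean signal of 83.0, lay below it.

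When insulin or an insulin-like growth factor binds, the receptor's kinase is switched on and phosphorylates docking proteins, of which Irs1 is the best known. Phosphorylated Irs1 recruits phosphoinositide 3-kinase (PI3K), whose lipid product brings the PKB (Akt) kinases to the membrane, where they are activated. Grb10 binds the active insulin and IGF1 receptors through its SH2 and BPS domains and restrains them, and its gene is imprinted, with expression from the maternal copy in most mouse tissues. In fibroblasts this pathway supports growth and survival, and in precursor cells it is needed for the formation of adipocytes.

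Fibroblasts grown from mouse embryos supplied the RNA. They were either wild type or PKBa-/-, the latter without Akt1, the gene of PKB alpha, in all cells. Per the labels the fibroblasts were prepared from embryos of 13.5 days out of crosses between heterozygotes and were used at passages 15 to 20, and 36 Affymetrix arrays were hybridized. Each genotype had 4 arrays (replicates 1 to 4) at each of the times 0, 6, 24 and 48, whereas time 2 has replicates 1 and 2 only, and no unit of time is given. The series title names DMEM as the treatment of both genotypes, while a mix for adipocyte induction, with insulin, dexamethasone and isobutylmethylxanthine, stands in the protocol text, and the sample labels do not say which medium an array received. The labels give neither the number of embryos or lines per genotype nor the mouse strain, so genotype and cell line cannot be told apart.

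Values are the deposited signals on a linear scale, and differences are on the log2(signal + 32) scale, which understates changes of dim genes. Replicates 1 and 2 of a group resembled each other more (correlation across genes 0.982 to 0.997 within 18 pairs) than they resembled replicates 3 and 4 (0.942 to 0.989). Each such pair was therefore averaged and counted as 1 replicate in limma, with p adjusted over 7436 tested genes by Benjamini and Hochberg, and a gene with an adjusted p under 0.05 is said to have passed. Nothing in the labels says whether replicates came from separate cultures, and the p-values cover only the spread between these samples, which may be technical. Pairs of a set at different times were counted as independent. A gap between sets that runs through the times is thus not fully covered by an SE or p averaged over times. Akt1 ran from 843 to 1395 in wild type and from 43.8 to 103 in PKBa-/- arrays, with no overlap. All 12 fibroblast markers were above the limit in these bulk samples, with summed signals of 58104 to 74431 in wild type and 72978 to 81840 in PKBa-/-, and 8 were higher and 3 lower in PKBa-/-. Of 11 mesothelial markers 9 were on the array and 5 above the limit, all 5 lower in PKBa-/-, with sums of 7214 to 11489 against 394 to 522. Upk3b was the largest part of the wild type sums, with set means of 4108 and 5088. Among those below the limit, Msln (283 and 186 against 40.5 and 44.5) and Krt19 (112 and 120 against 63.8 and 74.7) had lower means in PKBa-/-. The keratins Krt8 (116 and 116 against 106 and 126) and Krt18 (29.0 and 30.9 against 27.2 and 31.4) were alike in both genotypes. Marker counts by genotype are of genes that passed averaged over times, where 47.4% of all tested genes passed. Of 36 markers of 6 other cell types on the array 7 were above the limit, and 1 was higher and 4 lower in PKBa-/-. The lower ones were endothelial Kdr (means of 984 and 848 in the wild type sets against 208 and 267), leukocyte Cd14 (180 and 364 against 67.1 and 90.8), adipocyte Lpl (2872 and 4005 against 964 and 875) and muscle Des, and the higher one was Cebpa. Endothelial sums ran from 558 to 1736 in wild type and from 329 to 547 in PKBa-/-. The defining genes Pecam1, Ptprc, Cdh1 and Adipoq had means of at most 56.9 in every set.

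Grb10 separated the genotypes, with PKBa-/- signals between 110 and 206 against wild type signals that split into a high set (replicates 1 and 2, 2852 to 4101) and a low set (replicates 3 and 4, 372 to 1231). Irs1 was higher in PKBa-/- averaged over times, and its lowest signals lay at times 2 and 6 in every set that has them except wild type replicates 3 and 4, where the signal stayed low to time 48. Insr signals lay in 1 narrow band in both genotypes at all times. Averaged over times, both tested genes passed the genotype test, 2 of 2, in a comparison in which 47.4% of all tested genes passed, so that a call there sets neither gene apart from the array at large.

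The receptor itself gave the flattest record. On the brighter Insr probe set (1450225_at) the 18 wild type arrays ran from 64.4 to 103 with a median of 80.5 and a mean of 81.9 ± 8.68 (SD, n = 18). The 18 PKBa-/- arrays ran from 60.7 to 107 with a median of 85.3 and a mean of 84.8 ± 11.7 (SD, n = 18). The ranges of the genotypes overlapped almost wholly. At time 0 alone they did not overlap, with 64.4, 78.2, 78.3 and 81.8 in wild type against 81.8, 83.9, 86.7 and 90.3 in PKBa-/-, where the highest wild type array lay just under the lowest PKBa-/- array. On the dimmer probe set (1421380_at) the means were 53.6 ± 5.16 and 50.4 ± 3.85 (SD, n = 18 each).

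The genotype difference of Insr averaged over times was 0.02 ± 0.07 (SE), with a 95% interval of -0.12 to 0.16, and with no limit on low values its adjusted p was 0.875, where 34.0% of 12393 genes passed. Within replicates 1 and 2 it was -0.08 and within replicates 3 and 4 it was 0.17, with adjusted p of 0.0870 and 0.0125 over arrays and no limit on low values. Those p take the 2 arrays of a pair as replicates. In replicates 3 and 4, over all times, PKBa-/- arrays ran from 86.7 to 107 and wild type arrays from 64.4 to 103, which overlap. Taken by time they overlapped at times 6 and 24 and were apart at times 0 and 48. At time 48 wild type gave 75.5 and 76.5 against 87.6 and 99.9. The PKBa-/- over wild type ratio of means in this set was 1.24, 1.11, 1.12 and 1.23 at times 0, 6, 24 and 48. In replicates 1 and 2 that ratio was 1.04 at time 0 and 0.861 to 0.979 at the later times. Over time Insr moved little in either genotype, from a mean of 75.6 (wild type, time 0) to a mean of 88.4 (PKBa-/-, time 48) at the extremes. All neighbours in the order of the 10 group means overlapped in their arrays. The largest change against time 0 in either genotype was 0.13 at times 2 and 6 in wild type, with intervals of -0.23 to 0.49 and -0.16 to 0.42. The F tests over times gave adjusted p of 0.958 in wild type and 1 in PKBa-/- with no limit on low values. At these signals a change within those intervals would not have been seen.

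**Figure D1:**
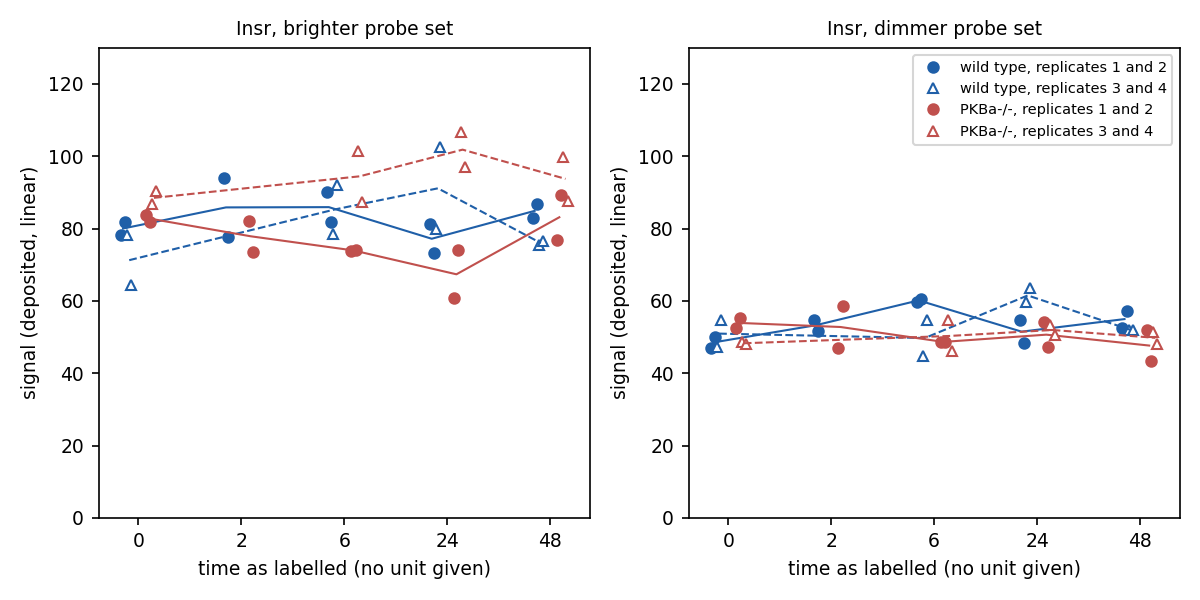
Insr signal (linear axis) on its brighter (left) and dimmer (right) probe set by labelled time, placed at equal steps. Each point is 1 array, filled for replicates 1 and 2 and open for replicates 3 and 4, and lines join the means of a set. Wild type runs from 64.4 to 103 and PKBa-/- from 60.7 to 107 on the left, with no gap between the genotypes.

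Irs1, the docking protein, is on chromosome 1. Its promoter, the 250 bases before the annotated start in RefSeq's GRCm38.p6 annotation, is shown beside the course of its signal over time. Capitals mark matches, on either strand, to the GC box GGGCGG (2 matches), the E-box CACGTG (1) and the cAMP response core TGACG (1), the last overlapping the E-box.
Irs1 promoter, chr1:82291440-82291689, minus strand: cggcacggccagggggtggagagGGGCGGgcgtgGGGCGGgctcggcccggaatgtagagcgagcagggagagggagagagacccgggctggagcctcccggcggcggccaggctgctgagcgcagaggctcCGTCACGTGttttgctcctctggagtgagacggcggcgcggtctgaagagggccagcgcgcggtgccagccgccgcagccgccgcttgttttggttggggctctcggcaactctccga
GC boxes occur in 32.7% of 32851 annotated promoters of that length, the E-box in 6.02% and the core in 17.8%. The full cAMP response element TGACGTCA (1.55%) and the FoxO sequence TGTTTAC (3.17%) had no match in this window. The window is 72.4% G and C with 28 CpG dinucleotides, against medians of 52.4% and 6 over all promoters.

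In wild type replicates 1 and 2 the Irs1 signals were 1840 and 1738 at time 0, 370 and 376 at time 2, 868 and 855 at time 6, 1390 and 1246 at time 24, and 1432 and 1423 at time 48. The low point was thus at time 2, with a partial return by time 24. In wild type replicates 3 and 4 they were 869 and 915 at time 0, 424 and 419 at time 6, 454 and 447 at time 24, and 433 and 399 at time 48. This set began below the other and its arrays at times 6 to 48 all lay under its arrays of time 0, with no return.

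In PKBa-/- replicates 1 and 2 the signals were 2467 and 2341 at time 0, 633 and 580 at time 2, 732 and 704 at time 6, 1657 and 1704 at time 24, and 2077 and 2112 at time 48. In PKBa-/- replicates 3 and 4 they were 1884 and 1800 at time 0, 523 and 533 at time 6, 1387 and 1321 at time 24, and 1812 and 1942 at time 48. Both PKBa-/- sets were low at time 6 and back near their time 0 level at time 48. The 2 arrays of a pair differed by at most 1.12-fold for Irs1, a spread that may be technical.

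As a percentage of the same set's mean at time 0, Irs1 stood at 20.9% in wild type and 25.2% in PKBa-/- at time 2. At time 6 it stood at 48.1% and 47.3% in the wild type sets (replicates 1 and 2, then 3 and 4) and at 29.9% and 28.7% in the PKBa-/- sets. At time 24 the wild type sets parted, at 73.7% and 50.5%, while the PKBa-/- sets stood at 69.9% and 73.5%. At time 48 the wild type sets were at 79.8% and 46.7% and the PKBa-/- sets at 87.1% and 102%.

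**Figure D2:**
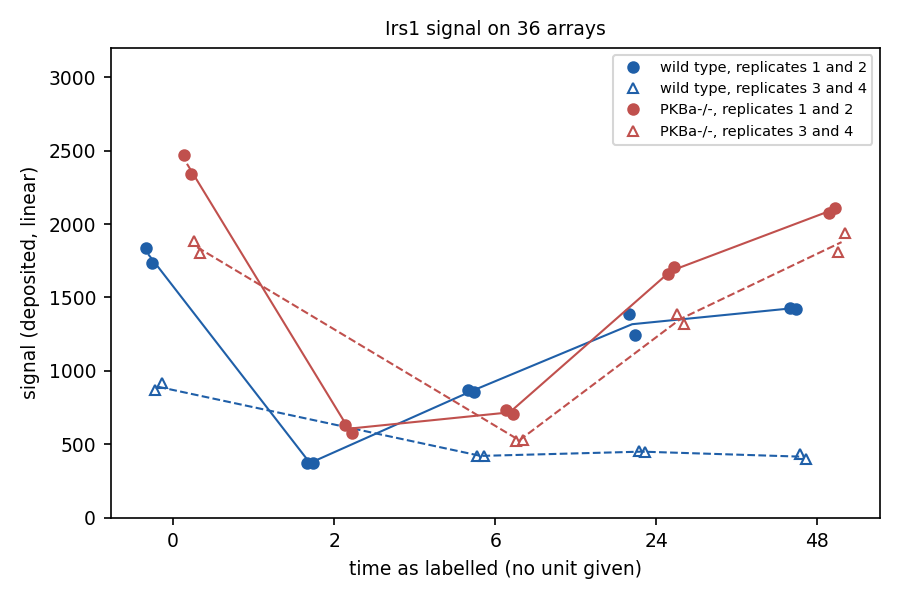
Irs1 signal (linear axis) on 36 arrays by labelled time, placed at equal steps. Each point is 1 array, filled with solid lines for replicates 1 and 2 and open with dashed lines for replicates 3 and 4, which have no time 2, and lines join set means. Both PKBa-/- sets end at 1812 to 2112, whereas wild type replicates 3 and 4 end at 399 and 433.

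Averaged over times, Irs1 was higher in PKBa-/- by 0.73 ± 0.27 (SE, adjusted p = 0.0438). The difference was 0.34 within replicates 1 and 2 and 1.23 within replicates 3 and 4, so that its size turns on the set. Its SE and p count pairs of a set at different times as independent and may understate the spread between sets. Without the limit on low values the difference did not pass (adjusted p = 0.0783). It also did not pass when any 1 PKBa-/- pair average of times 0, 6, 24 or 48, or any 1 pair average of wild type replicates 3 and 4, was left out, with values of 0.56 to 0.77 in those fits. Mesothelial and fibroblast markers moved with genotype as given above, and their part in the Irs1 difference was not tested.

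Time by time, the PKBa-/- over wild type ratio of Irs1 mean signals in replicates 1 and 2 was 1.34 at time 0, 1.63 at time 2, 0.834 at time 6, 1.28 at time 24 and 1.47 at time 48. In replicates 3 and 4 it was 2.07 at time 0, 1.25 at time 6, 3.00 at time 24 and 4.51 at time 48. At time 6 the sets thus pointed in opposite directions, and the mean difference was 0.03 ± 0.56 (SE). Within a set the arrays of the genotypes overlapped at no time, and over all arrays they overlapped at times 0, 6 and 24. Within a set this compares 2 close arrays with 2, and Insr arrays too were apart in both sets at time 0. The share of all tested genes without overlap is not given here. The differences at single times were 0.72 ± 0.56 at time 0, 0.66 ± 0.79 at time 2, 0.93 ± 0.56 at time 24 and 1.32 ± 0.56 at time 48 (SE), with adjusted p of 0.409, 0.785, 0.285 and 0.112 in limma, and none passed. With a term for the replicate set within each genotype, Irs1 passed at times 0, 2, 24 and 48 (adjusted p = 0.00196, 0.00255, 0.000207 and 7.56e-06) and not at time 6 (0.920). That term takes the gap between sets out of the spread, so these p do not cover it. At time 2, which lacks replicates 3 and 4, the value tested was 1.14 ± 0.22 (SE), adjusted by the gap at the other times. With a block for the set alone Irs1 passed at times 24 and 48 (adjusted p = 0.0436 and 0.00713). With the set term within each genotype, 36.2%, 18.2%, 35.9%, 39.3% and 43.3% of tested genes passed at times 0, 2, 6, 24 and 48. The rates that go with the block for the set alone are not given here. Over pair averages without such a term, tested genes passed at lower rates. These were 14.8% at time 0, 5.78% at time 2, 16.5% at time 6, 20.4% at time 24 and 23.2% at time 48. Grb10 made up the member counts of 1 of 2 at times 0 and 6, and 0 of 2 members passed at times 2, 24 and 48. At an unadjusted p under 0.05 the counts at those 3 times were 1, 1 and 2, where 1312, 2371 and 2640 of the 7436 tested genes lay under it. With arrays as replicates, which counts the 2 arrays of a pair as separate, 1, 2 and 2 passed. The share of all tested genes that passed in that fit is not given here, so these counts set neither gene apart.

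The time courses of Irs1 were tested against time 0. In wild type the differences were -1.68 ± 0.68 at time 2, -1.03 ± 0.56 at time 6, -0.68 ± 0.56 at time 24 and -0.68 ± 0.56 at time 48 (SE), with adjusted p of 0.270, 0.273, 0.561 and 0.533. In PKBa-/- they were -1.74 ± 0.68, -1.72 ± 0.56, -0.47 ± 0.56 and -0.08 ± 0.56 (SE), with adjusted p of 0.273, 0.0507, 0.762 and 0.968. None passed in limma over pair averages, where the level gap between the sets counts as spread. Of the 2 tested members 0 passed at any time, against 2.73%, 11.9%, 5.66% and 6.01% of genes in wild type and 3.39%, 18.4%, 6.15% and 7.45% in PKBa-/- at times 2, 6, 24 and 48. At an unadjusted p under 0.05 Irs1 alone would count, at time 2 in wild type and at times 2 and 6 in PKBa-/-, where 1040, 946 and 2299 of the 7436 tested genes lay under it. With arrays as replicates, which counts the 2 arrays of a pair as separate, Irs1 passed there and at time 6 in wild type. The share of all tested genes that passed in that fit is not given here, so these calls do not set Irs1 apart.

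The same changes were read within sets, and with the set term, which takes the level gap out of the spread. At time 6 the change was -1.03 in both wild type sets and -1.70 and -1.74 in the PKBa-/- sets. At time 2, which replicates 1 and 2 alone have, it was -2.17 in wild type and -1.93 in PKBa-/-. With the set term Irs1 fell by 2.32 ± 0.19 at time 2 in wild type (adjusted p = 2.46e-06) and fell by 1.03 ± 0.15 at time 6 (adjusted p = 0.000187). In PKBa-/- it fell by 1.90 ± 0.19 at time 2 (adjusted p = 1.88e-05) and fell by 1.72 ± 0.15 at time 6 (adjusted p = 1.97e-06). Then 1 of 2 members passed at time 2, against 11.3% of genes in wild type and 10.1% in PKBa-/-, and at time 6 the rates were 32.2% and 37.0%. At the later times Irs1 was also lower than at time 0 in wild type with the set term, with a difference of -0.68 ± 0.15 at times 24 and 48 each (SE, adjusted p = 0.00506 and 0.00492). In PKBa-/- it was lower at time 24 (-0.47 ± 0.15, SE, adjusted p = 0.0368) and did not pass at time 48 (adjusted p = 0.749). These were 1 of 2 members each, where 22.1% and 23.5% of genes passed in wild type at times 24 and 48 and 21.9% in PKBa-/- at time 24. The return from time 6 to time 24 was 1.19 and 1.31 in the PKBa-/- sets and 0.59 and 0.09 in the wild type sets.

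Whether the genotypes differed in their course was tested as an interaction. At time 6 the PKBa-/- change minus the wild type change was -0.67 and -0.72 in the 2 sets, close to each other, and over pair averages it was -0.69 ± 0.79 (SE, adjusted p = 0.959). At time 48 it was 0.12 in replicates 1 and 2 and 1.07 in replicates 3 and 4. The F test over the later times gave an adjusted p of 0.999 in limma, where 1.75% of genes passed, and 0.00634 with the set term, where 14.9% passed. Within single sets, with arrays as replicates, it also passed, with adjusted p of 7.63e-07 in replicates 1 and 2 and 3.97e-09 in replicates 3 and 4. There the 2 arrays of a pair are the only replicates of a group, so these p cover a spread that may be technical. Over pair averages without a set term, or with a block for the set alone (adjusted p = 0.472), the F test did not pass.

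Grb10, the inhibitory adaptor, is on chromosome 11. Its first annotated promoter, again the 250 bases before the start in RefSeq's GRCm38.p6 annotation, is shown beside the signals that separated the genotypes. Capitals mark the GC box GGGCGG on either strand, with 5 matches, of which the last 2 overlap.
Grb10 promoter, chr11:12037421-12037670, minus strand: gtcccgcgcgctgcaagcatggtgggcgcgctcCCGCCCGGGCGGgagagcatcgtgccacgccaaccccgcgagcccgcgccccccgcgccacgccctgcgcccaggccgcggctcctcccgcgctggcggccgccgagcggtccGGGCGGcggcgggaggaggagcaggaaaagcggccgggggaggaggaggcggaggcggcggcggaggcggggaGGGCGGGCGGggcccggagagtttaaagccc
None of the other sequences searched for Irs1 was found in this window. It is 81.2% G and C with 40 CpG dinucleotides, more than 98.7% of promoters, where Irs1 has more than 92.4%. A second annotated Grb10 start, at chr11:12027972-12028221 on the same strand, is less rich, at 54.0% and 8 CpG dinucleotides, with no GC box and 1 TGACG core.

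On the brightest Grb10 probe set (1425458_a_at), wild type replicates 1 and 2 gave 3009 and 3142 at time 0, 2852 and 3177 at time 2, 4101 and 3678 at time 6, 3298 and 3117 at time 24, and 3189 and 2963 at time 48. Wild type replicates 3 and 4 gave 642 and 693 at time 0, 1231 and 1189 at time 6, 520 and 455 at time 24, and 402 and 372 at time 48. These wild type sets did not overlap at the times both have, with set means 4.61-, 3.22-, 6.58- and 7.95-fold apart at times 0, 6, 24 and 48.

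PKBa-/- replicates 1 and 2 gave 125 and 124 at time 0, 144 and 152 at time 2, 139 and 138 at time 6, 196 and 205 at time 24, and 150 and 148 at time 48. PKBa-/- replicates 3 and 4 gave 119 and 139 at time 0, 110 and 121 at time 6, 206 and 186 at time 24, and 122 and 132 at time 48. The highest PKBa-/- array of all, 206, was below the lowest wild type array, 372. Within pairs the arrays differed by at most 1.17-fold.

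**Figure D3:**
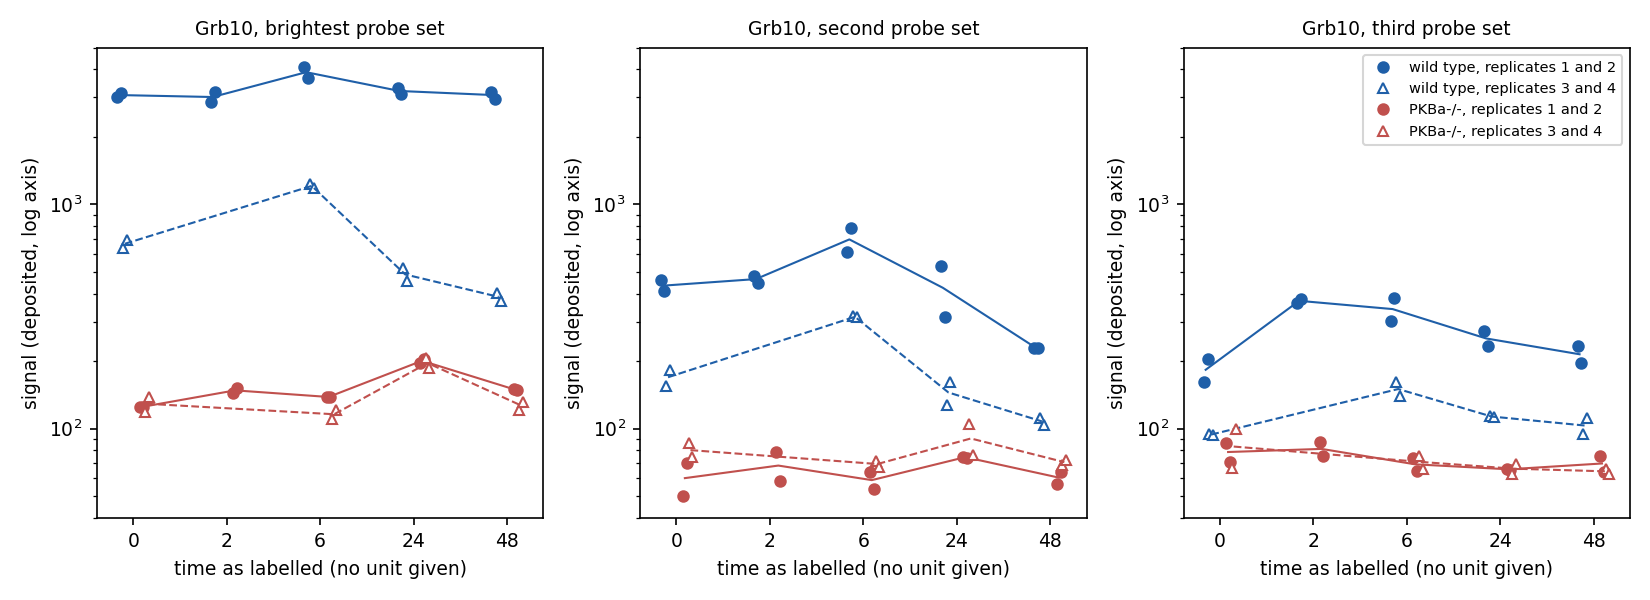
Grb10 signal (log axis) on its 3 probe sets, from the brightest on the left, by labelled time placed at equal steps. Each point is 1 array, filled for replicates 1 and 2 and open for replicates 3 and 4, and lines join set means. On the brightest probe set the 2 wild type sets lie apart at 2852 to 4101 and 372 to 1231, above all PKBa-/- arrays (110 to 206).

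Averaged over times, Grb10 was lower in PKBa-/-, with a log2 difference of -3.27 ± 0.47 (SE, adjusted p = 0.000125). It was -4.16 within replicates 1 and 2 and -1.94 within replicates 3 and 4. Here too the SE and p count pairs of a set at different times as independent and may understate the spread between sets. As a ratio of mean signals, wild type over PKBa-/- was 24.6 at time 0, 20.4 at time 2, 28.1 at time 6, 15.98 at time 24 and 20.6 at time 48 in replicates 1 and 2. In replicates 3 and 4 it was 5.17 at time 0, 10.4 at time 6, 2.48 at time 24 and 3.05 at time 48. Every array pair thus had the same direction, and at the 4 times that both sets have the ratio was larger in replicates 1 and 2. The PKBa-/- signals in these ratios ran from 110 to 206 and in replicates 3 and 4 reached below the limit on low values of about 123, with a pair mean of 116 at time 6, so the ratios depend on the background of the arrays, whose part was not tested.

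At single times Grb10 passed at time 0 (-3.21 ± 0.97, SE, adjusted p = 0.0433) and at time 6 (-3.80 ± 0.97, SE, adjusted p = 0.0193). At times 2, 24 and 48 the differences were -4.08 ± 1.37, -2.49 ± 0.97 and -2.75 ± 0.97 (SE) with adjusted p of 0.125, 0.0923 and 0.0596. The call at time 0 was lost with an offset of 64 (adjusted p = 0.0534), with no limit on low values (0.0752) and with the mean of the probe sets (0.0682). It was also lost in 9 of 18 fits that left out a pair, and the call at time 6 in 3 of 18. The arrays of the genotypes did not overlap at any time, in either set. As for Irs1, within a set this compares 2 close arrays with 2, and the share of all tested genes without overlap is not given here. With the set term all 5 times passed, with adjusted p from 3.13e-09 at time 6 to 8.3e-06 at time 2, and pass rates over all genes of 36.2%, 18.2%, 35.9%, 39.3% and 43.3% at times 0, 2, 6, 24 and 48. The set term takes the gap between the sets out of the spread, so these p do not cover it. The mesothelial marker sums of 7214 to 11489 in wild type and 394 to 522 in PKBa-/- move with the same contrast, and their part in it was not tested. Over all times those sums ran from 7214 to 11098 in wild type replicates 1 and 2 and from 8920 to 11489 in replicates 3 and 4. Their part in the Grb10 gap between these sets was not tested either.

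**Figure D4:**
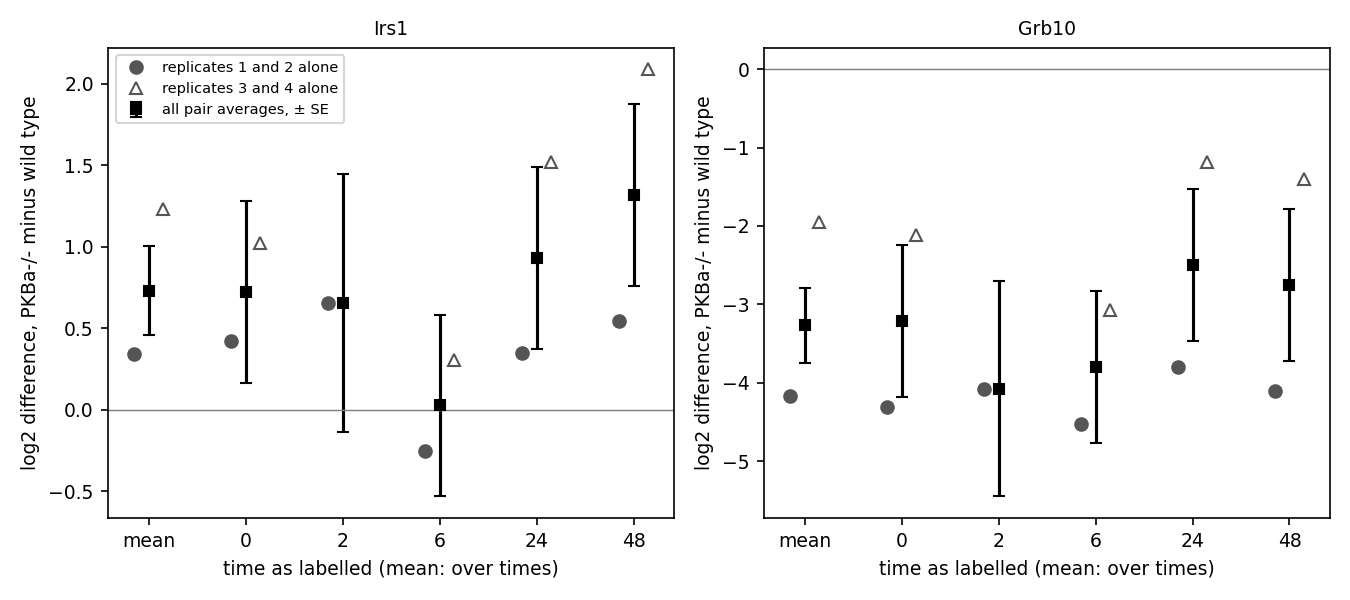
Log2 difference PKBa-/- minus wild type of Irs1 (left) and Grb10 (right), averaged over times and at each labelled time. Squares are the limma values over all pair averages with bars of ± SE, and circles and triangles the values within replicates 1 and 2 and within replicates 3 and 4. All Grb10 values lie below 0, whereas for Irs1 at time 6 the sets fall at -0.25 and 0.30.

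The other Grb10 probe sets gave the same direction. On 1425457_a_at, wild type replicates 1 and 2 ran from 229 to 786, wild type replicates 3 and 4 from 104 to 316, and PKBa-/- arrays from 49.9 to 105. On 1430164_a_at they ran from 161 to 381, from 93.5 to 161 and from 62.7 to 99.7. The PKBa-/- range touched the lower wild type set on both, while wild type replicates 1 and 2 stood above it. In a fit of 20380 probe sets with no limit on low values, in which 31.9% passed averaged over times, the differences were -1.71 ± 0.25 and -1.13 ± 0.20 (SE, adjusted p = 0.000408 and 0.00131). Levels are not compared between probe sets. The symbol and annotation do not say which transcript forms each probe set reads.

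Over time the Grb10 sets did not run in parallel. On the brightest probe set the wild type time 6 arrays were the highest of their set in both sets, at 126% and 181% of the set's mean at time 0. By time 48 replicates 1 and 2 stood at 100% and replicates 3 and 4 at 58.0%. The change at time 6 was 0.58 ± 0.97 over pair averages (SE, adjusted p = 0.744). It was 0.33 and 0.83 within the sets, and with the set term Grb10 rose by 0.58 ± 0.20 (SE, adjusted p = 0.0403), which made 2 of 2 members passing at that time against 32.2% of genes. In PKBa-/- the time 24 arrays on this probe set were the highest of both sets, at 161% and 152% of time 0, with a change of 0.54 ± 0.97 (SE, adjusted p = 0.878) and an adjusted p of 0.0731 with the set term. The time F tests gave adjusted p of 0.823 in wild type and 1 in PKBa-/-, where 19.9% and 25.0% of genes passed. For Irs1 they gave 0.369 and 0.0838. With the set term the wild type test passed for both members (adjusted p = 0.0112 for Grb10 and 1.02e-05 for Irs1, where 53.4% of genes passed) and the PKBa-/- test for Irs1 only (0.142 and 1.18e-06, where 56.5% passed). The interaction F test of Grb10 gave an adjusted p of 0.999 over pair averages and 0.0373 with the set term, which made 2 of 2 members passing there against 14.9% of genes.

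The other Grb10 probe sets shared part of these courses and differed in part. On 1425457_a_at set means were likewise highest at time 6 in both wild type sets (698 and 315). In PKBa-/- they were likewise highest at time 24 in both sets, at dim signals (74.6 and 90.4). On 1430164_a_at wild type replicates 3 and 4 were also highest at time 6 (150, against 94.1 at time 0). On 1425457_a_at the mean of wild type replicates 1 and 2 was 434 at time 0, 698 at time 6 and 229 at time 48, so the time 48 value lay below that of time 0. On 1430164_a_at that set was highest at time 2 (372, against 183 at time 0). PKBa-/- replicates 1 and 2 were lowest there at time 24 (65.8), the time at which they were highest on the brightest probe set.

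The gap between the replicate sets was itself tested over times 0, 6, 24 and 48. In wild type the log2 difference of replicates 3 and 4 minus replicates 1 and 2 was -2.34 ± 0.14 for Grb10 (SE, adjusted p = 6.0e-08) and -1.29 ± 0.11 for Irs1 (SE, adjusted p = 1.2e-06), so that 2 of 2 members passed against 30.2% of tested genes. In PKBa-/- the gap was -0.10 ± 0.14 for Grb10 (SE, adjusted p = 0.614) and -0.32 ± 0.11 for Irs1 (SE, adjusted p = 0.0442), and 1 of 2 passed against 25.4%. The Irs1 gap in PKBa-/- did not pass after quantile normalization (-0.18, adjusted p = 0.222), with no limit on low values (0.0726) or with the mean of probe sets (0.0584). The gap differed between the genotypes by 2.24 ± 0.20 for Grb10 (SE, adjusted p = 9.87e-06) and by 0.97 ± 0.15 for Irs1 (SE, adjusted p = 0.000951), again 2 of 2 members, against 16.1% of genes. Insr, with no limit on low values, gave -0.02 in wild type (adjusted p = 0.913) and 0.22 in PKBa-/- (adjusted p = 0.0534).

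Other genes moved with the wild type gap. Of 12 fibroblast markers 2 were higher and 7 lower in replicates 3 and 4, where 30.2% of all tested genes passed. Means were lower there for Thy1, a surface glycoprotein of fibroblasts (1558 and 330), and Lum, the matrix proteoglycan lumican (1808 and 375). They were higher for Dcn (5623 and 8982) and Col3a1 (7400 and 8792). The summed fibroblast signals overlapped, at 61130 to 74431 and 58104 to 71982. The part of these markers, and of what the replicate numbers stand for, in the gap was not tested. In bulk RNA fewer cells that express a gene and less RNA per cell cannot be told apart.

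The order of the 10 group means was, for Grb10, wild type at times 2, 6, 0, 24 and 48 followed by PKBa-/- at times 24, 2, 48, 6 and 0. Time 2 lacks replicates 3 and 4, the low wild type set, and within replicates 1 and 2 it was the lowest wild type time, with a mean of 3015 against 3076 to 3890 at the others. Within the wild type groups every neighbour overlapped with the next. The step from wild type time 48 to PKBa-/- time 24 and the step after it did not overlap. For Irs1 the order was PKBa-/- at times 0, 48 and 24, wild type at times 0, 48, 24 and 6, PKBa-/- at times 6 and 2, and wild type at time 2. Only the steps from PKBa-/- time 48 to time 24 and from PKBa-/- time 2 to wild type time 2 were free of overlap. Across the 18 pair averages the correlation of Irs1 with Grb10 was -0.19, with 0.56 over the 9 of wild type and 0.15 over the 9 of PKBa-/-, given as a description, since these averages share sets and lines.

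The other genes of the pathway were taken by role. Among receptors and ligands 7 of 8 genes were on the array and 5 were tested, and averaged over times 1 was higher and 1 lower in PKBa-/-, with a median of 0.07 against 0.03 over all genes, where 47.4% of genes passed. Igf2r, the receptor that clears IGF2, was higher by 1.20 ± 0.09 (SE, adjusted p = 4.5e-07). Igf2, the growth factor ligand, was lower, with a difference of -2.09 ± 0.38 (SE, adjusted p = 0.00061), and of -1.43 in replicates 1 and 2 and -3.09 in replicates 3 and 4. No gene of this list passed against time 0 except Igf1 at time 48 in PKBa-/- (2.67 ± 0.70, SE, adjusted p = 0.037).

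Among substrates and docking proteins 14 of 22 genes were tested, and 5 were higher and 3 lower in PKBa-/-, with a median of 0.06, a share near the 47.4% of all tested genes that passed. Beside Irs1 these included Dok1, a docking protein that also recruits a Ras inhibitor (0.51 ± 0.11), Gab1, a docking protein of growth factor receptors (-0.62 ± 0.08), and Irs2, the second main substrate (-0.43 ± 0.09). Irs2 ran from 240 to 528 in wild type and from 144 to 346 in PKBa-/-, overlapping ranges, and was lower in both sets (-0.54 and -0.26), the opposite direction to Irs1. Against time 0, 1 member passed in limma over pair averages, Nck1 at time 2 in PKBa-/- (-0.71 ± 0.17). Between successive times Nck1 rose from time 2 to time 6 in both genotypes (0.95 ± 0.17 and 0.62 ± 0.17) while Irs2 was lower (-0.90 ± 0.22 and -0.93 ± 0.22). Dok1 was lower over that step in PKBa-/- (-1.14 ± 0.27), and Gab1 rose from time 6 to time 24 in wild type (0.71 ± 0.17).

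Among inhibitors, phosphatases and degradation factors 18 of 23 genes were tested, and 4 were higher and 6 lower in PKBa-/-, with a median of -0.02, again near the 47.4% over all genes. Next to Grb10 the largest difference was that of Ptprf, the receptor phosphatase LAR, which dephosphorylates the insulin receptor (-3.11 ± 0.10, SE, adjusted p = 9.1e-11). Wild type arrays had a mean Ptprf signal of 1984 ± 477 and PKBa-/- arrays one of 186 ± 30.6 (SD, n = 18 each), and its difference was of like size in both sets (-3.00 and -3.42). Cul7, a ubiquitin ligase subunit that targets Irs1, was higher by 0.85 ± 0.06 (SE, adjusted p = 3.5e-07). Socs1, a feedback inhibitor, was higher by 0.68 ± 0.05 (SE, adjusted p = 6.1e-07).

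Some inhibitors changed over time. At time 2 Socs3 rose by 2.01 ± 0.28 in wild type and 2.69 ± 0.28 in PKBa-/- (SE, adjusted p = 0.0013 and 0.00014), and Socs1 by 0.93 ± 0.13 and 1.97 ± 0.13. Trib3, a pseudokinase that binds PKB, fell at all 4 later times, with differences of -1.23 to -1.83 in wild type and -1.09 to -1.41 in PKBa-/-. Grb14, the closest relative of Grb10, fell by 1.55 ± 0.16 at time 6 in wild type and fell by 1.04 ± 0.16 in PKBa-/-, while its genotype difference did not pass (-0.12 ± 0.08). Its change at time 24 was the one interaction that passed among the tested genes of these lists, with 1.16 ± 0.22 (SE, adjusted p = 0.0387) for PKBa-/- minus wild type, and 1.29 and 1.03 within the sets. The counts of members higher and lower against time 0 were 2 and 1, 0 and 3, 0 and 2, and 0 and 2 in wild type, and 3 and 1, 1 and 3, 1 and 1, and 0 and 2 in PKBa-/-, at times 2, 6, 24 and 48, where 2.73%, 11.9%, 5.66% and 6.01% of all genes passed in wild type and 3.39%, 18.4%, 6.15% and 7.45% in PKBa-/-.

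**Figure D5:**
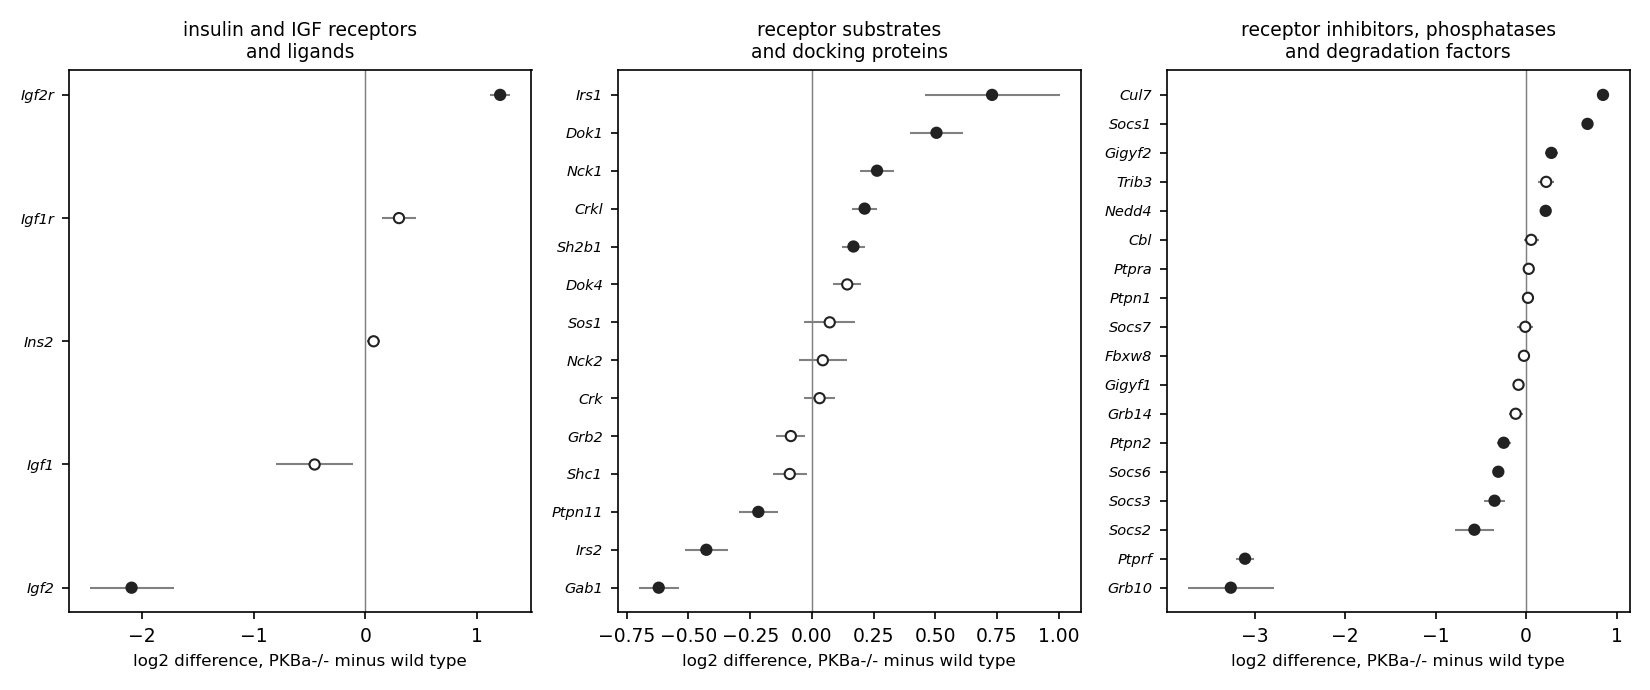
Log2 difference PKBa-/- minus wild type averaged over times, with bars of ± SE, for the tested genes of the lists of receptors and ligands, of substrates and of inhibitors. Filled points passed in limma and open points did not. Grb10 (-3.27) and Ptprf (-3.11) lie far below the rest of the inhibitor list, and Irs1 (0.73) is the highest of the substrates.

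Below the receptor, 18 of 26 genes of the PI3K, PKB and mTOR steps were tested, with 7 higher and 4 lower in PKBa-/-, where 47.4% of all genes passed. Apart from Akt1 (-3.45 ± 0.10), the largest were Phlpp1, a phosphatase of PKB (0.89 ± 0.15), Tsc2, an inhibitor of mTOR complex 1 (0.55 ± 0.07), and Pdpk1, the kinase that activates PKB (0.51 ± 0.10). Pik3r1, the regulatory PI3K subunit that binds Irs1, rose by 0.90 ± 0.23 at time 24 and 0.94 ± 0.23 at time 48 in wild type and by 1.30 ± 0.23 and 1.61 ± 0.23 in PKBa-/-. Of 12 tested FoxO factors and targets, 1 was higher and 5 lower, with a median of -0.16 and a share close to the 47.4% over all genes, led by the stress gene Sesn1 (-0.84 ± 0.09). PKB keeps FoxO factors out of the nucleus, and Irs2, Insr and Sesn1 are among the genes FoxO factors can activate.

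Of the genes near Grb10 on chromosome 11 only Fignl1 and Ikzf1, which lie 2 and 3 genes away, were tested. They differed between genotypes by -0.11 ± 0.08 and 0.06 ± 0.07 (SE). In limma over pair averages 0 of 2 passed, where 47.4% of tested genes passed. Over arrays 0 of 2 passed too, a fit whose share is not given here. At an unadjusted p under 0.05 over pair averages the count was 0, where 4006 of the 7436 tested genes lay under it. With the set term Fignl1 passed (adjusted p = 0.0247), with -0.27 in replicates 3 and 4 and 0.06 in replicates 1 and 2. In that fit 4676 of the 7436 tested genes passed. Ddc, which adjoins Grb10 and lay below the limit, is named after its values were seen. Its means were 201 ± 74.3 (SD, n = 10) and 109 ± 29.4 (SD, n = 8) in wild type replicates 1 and 2 and replicates 3 and 4, and 102 ± 51.1 (SD, n = 10) and 91.9 ± 30.1 (SD, n = 8) in PKBa-/-, with overlapping arrays. Like Grb10 it was thus highest in wild type replicates 1 and 2. Vstm2a, on the other side, also read after its values were seen, ran from 12.1 to 16.7 over all arrays, and Zpbp, another gene of the list, from 21.4 to 37.6.

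By correlation over the 18 pair averages, the genes most like Grb10 were Fgf18, a fibroblast growth factor (0.98), the matrix genes Mfap5 (0.96) and Itih2 (0.96), Fbln7 (0.96) and Nnat (0.96). The correlations over the 9 wild type averages alone ran from 0.90 to 0.95 and over the 9 PKBa-/- averages from -0.21 to 0.19. In PKBa-/- Fgf18, Fbln7, Nnat and Itih2 had no array above the limit of about 123 (highest 83.2, 82.9, 36.9 and 122), so the correlations there do not bear on likeness. The most opposite were Wipi1 (-0.92), Lama2 (-0.92) and Slc29a1 (-0.91). For Irs1 the most alike were Tbc1d17 (0.92), the Wnt receptor gene Fzd2 (0.88), the histone demethylase gene Kdm5b (0.87), Sike1 (0.85) and Myl6 (0.85), with correlations of 0.77 to 0.95 within wild type or within PKBa-/- alone. The most opposite were the fatty acid activating enzyme Acsl4 (-0.88), Fam133b (-0.84) and Zfand5 (-0.82). These are the extremes of 7436 genes and are given as a description.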

How the data were processed

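The deposited table holds linear intensities, 1 for each probe set on each array, from 8.62 to 19337, with array medians of 134 to 145; the summary and normalization the authors used are not given in the sources used here. Per the labels' protocols, biotinylated cRNA made from total RNA was hybridized. Precision is limited by how many arrays there are. Of 22690 probe sets, 20380 had 1 gene in GEO's platform annotation and were used, 691 had several, 1555 none and 64 were controls. Symbols of 20351 were looked up by gene identifier in RefSeq's table.

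The brightest probe set stood for each of 12393 genes as log2(signal + 32), the 40% of genes with the lowest mean were not tested, and the values were not normalized further. In R 4.3.3, limma 3.58.1 was used to fit 10 group means to 18 pair averages, with 8 residual and 4.24 prior degrees of freedom, two-sided. The gap between replicate sets was fitted to the 16 pair averages of times 0, 6, 24 and 48, with 6 residual degrees of freedom. Tests within 1 set used arrays as replicates.

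On simulated data made like the genotype comparison averaged over times (7436 genes, 200 of them changed), pair averages made 11 false calls and found 94% of the 1.5-fold, 98.5% of the 2-fold and 100% of the 4-fold changes, and arrays as replicates gave 378 false calls. The simulation drew each pair on its own, with no gap between sets shared across times or differing by genotype. The data have such gaps, so these counts do not give the error rate here.

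The 3 genes and the pathway and marker lists were chosen with earlier results of these data known. Besides the 3 genes and Akt1, up to 4 list members with the largest difference among those that passed a comparison were named, with a few others named for their role (Grb14, Pik3r1, Igf1, Fignl1, Ikzf1, Zpbp), and the 5 most and 3 least correlated genes. Alternatives were other offsets, limits on low values, probe set means, quantile normalization, an intensity trend, arrays as replicates, a random pair effect, blocks for replicate set and replicate number, single sets, only the groups compared, and leaving out each array or pair. A fit of each probe set on its own was added after the data were seen.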

Additional observations from a re-analysis of the deposited data

Results flagged for a closer look

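The gap between the replicate sets (replicates 3 and 4 minus replicates 1 and 2, over times 0, 6, 24 and 48) was singled out for Grb10 because it differed between the genotypes by test. The PKBa-/- gap minus the wild type gap was 2.24 on the log2 scale, from -0.10 in PKBa-/- and -2.34 in wild type.

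For Irs1 the same test singled out a difference of 0.97, from gaps of -0.32 in PKBa-/- and -1.29 in wild type. Among the pathway lists, Grb14, the closest relative of Grb10, had a change at time 24 that differed between genotypes by 1.16 (PKBa-/- minus wild type). No array stood apart from its group of 4 in the 24 groups examined, 3 genes by 8 groups, by the gap of the highest or lowest array to the next. In groups made of 2 close pairs, that check has little room to find one.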

How the results depend on the processing

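Over 81 log2 differences of the members and 1110 comparisons with an alternative setting (leaving out arrays or pairs aside), 961 kept direction and side of the threshold, 8 lost a call, 123 gained one, 16 moved and 2 changed direction. The direction changed with replicates 1 and 2 alone for Irs1 genotype at time 6 (-0.25) and for Grb10 wild type 6 minus 2 (0.36). Irs1 genotype averaged over times stayed at 0.73 but did not pass with no filter on low values (adjusted p = 0.0783) or with each probe set on its own (adjusted p = 0.0883). Leaving out 1 pair gave 0.56 to 0.90, with 12 of 16 fits not passing, at 0.56 to 0.77. Insr genotype averaged over times moved to 0.17 with replicates 3 and 4 alone. Grb10 genotype averaged over times passed in every alternative run.

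The Irs1 time changes passed under several settings that the pair averages alone did not reach. Irs1 wild type 2 minus 0 was -1.68 with arrays as replicates or a random pair effect, -2.08 with the replicate block by number or by set, -2.32 with the block of the set within genotype and -2.17 with replicates 1 and 2 alone. Irs1 wild type 6 minus 0 was -1.03 under all of these and with replicates 3 and 4 alone. Irs1 PKBa-/- 2 minus 0 was -1.74, -2.14, -1.90 and -1.93 in the same order. Irs1 PKBa-/- 6 minus 0 was -1.72 under the same fits, with quantile normalization and with the compared groups alone, -1.67 with an offset of 64, and -1.70 and -1.74 within the sets. Leaving out 1 array or pair, it ran from -1.93 to -1.51, and the fits in which it passed gave -1.74 to -1.71.

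Replicate numbers do not pair arrays by the labels. Deviations of arrays with the same number correlated at -0.01 to 0.71 between times within a genotype (24 of 28 over 0.1) and at -0.12 to 0.32 between genotypes (12 of 18). In wild type, times 6, 24 and 48 correlated with time 0 at 0.51 to 0.71, so deviations there were shared across times. The block was not made the main fit, which leaves that sharing out. With the block by number, 5171 genes passed averaged over times, against 3521 without it. Counts of genes that passed differed by over 1.5 times in 176 of 396 comparisons, for instance from 203 to up to 2416 for wild type 2 minus 0 and from 1366 to up to 3798 for PKBa-/- 6 minus 0, so pass rates belong to the fit they stand beside. Array number and the dimness of Insr limit what could be seen.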

Other observations

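Other pathway genes also differed between the wild type replicate sets. Lower in replicates 3 and 4 were Igf1, a ligand of the IGF1 receptor (-1.27 ± 0.30, SE, adjusted p = 0.0056), Igf1r, that receptor (-0.70 ± 0.07, SE, adjusted p = 6.5e-06), and Phlpp1, a phosphatase of PKB (-0.66 ± 0.09, SE, adjusted p = 9.9e-05). Higher was Socs3, a feedback inhibitor (0.50 ± 0.07, SE, adjusted p = 0.0001). Of 5 tested receptors and ligands 3 were lower and 0 higher, and of 18 tested inhibitors 4 were higher and 2 lower, Grb10 among the latter, where 30.2% of all tested genes passed. In PKBa-/- the largest gap in these lists was that of Igf2 (-1.86 ± 0.09, SE, adjusted p = 3.8e-08), whose signals ran from 1756 to 4014 in replicates 1 and 2 and from 416 to 1298 in replicates 3 and 4.

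Of 12 tested FoxO factors and targets, the counts higher and lower than at time 0 were 0 and 1, 0 and 2, 2 and 0, and 1 and 0 in wild type at times 2, 6, 24 and 48, where 2.73%, 11.9%, 5.66% and 6.01% of all genes passed. In PKBa-/- they were 0 and 2, 1 and 3, 3 and 1, and 1 and 1, where 3.39%, 18.4%, 6.15% and 7.45% passed. Txnip, an inhibitor of glucose uptake, fell by 1.60 ± 0.17 at time 2 in wild type and by 2.07 ± 0.17 in PKBa-/-. Sesn1, a stress gene that restrains mTOR complex 1, rose by 1.27 ± 0.19 and 1.67 ± 0.19 at times 24 and 48 in wild type and by 0.75 ± 0.19 and 0.90 ± 0.19 in PKBa-/-. From the list of PI3K, PKB and mTOR steps, Eif4ebp1, a translation repressor that mTOR complex 1 switches off, fell by 1.04 ± 0.17 at time 48 in wild type and by 0.73 ± 0.17 in PKBa-/-. None of these 3 genes passed the interaction test at any time in limma over pair averages.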
